A study of Caenorhabditis elegans with 2 samples.

Results

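The 10 microRNA (miRNA) genes cel-mir-35 to cel-mir-44 of Caenorhabditis elegans form 2 clusters of hairpins on the plus strand of chromosome II. They were chosen by name, with earlier results of these data known, and make up 10 of the 261 annotated miRNA genes. The cel-mir-35 to cel-mir-41 cluster holds 7 hairpins in 797 bp, at 11537608 to 11538404 on build ce11. The cel-mir-42 to cel-mir-44 cluster holds 3 hairpins in 308 bp, at 11889811 to 11890118. The clusters are 351406 bp apart. RNA polymerase II was mapped at them by chromatin immunoprecipitation and sequencing (ChIP-seq) with an antibody against its largest subunit, AMA-1. The study's 2 samples are biological replicates 1 and 2 of 1 condition, whole late embryos of the wild-type strain N2, with males and females pooled and the age given as unknown. The labels name a possible control experiment, which was not analysed here, and the read depth of the libraries is unknown, so no value below has a counting interval. Each replicate has a ranked list of 30000 peaks, a pooled list of 30000 peaks combines them, and the authors' final list holds 476 peaks selected by the irreproducible discovery rate (IDR). The pooled list is labelled as peaks and background used as input for IDR, so its low entries may be background. Of the 476 IDR peaks, 475 have the position of 1 of the 476 highest pooled peaks, so the IDR rank largely repeats the pooled rank. Every peak was taken whose summit lay within 1000 bp of a hairpin, which gave 2 IDR peaks, 8 pooled peaks, 8 peaks of replicate 1 and 7 of replicate 2. In whole embryos, a low peak over a gene used in few cells and one with little polymerase in every cell cannot be told apart. Rank 1 is the highest peak of a list by the authors' signal value, a score with no stated scale that was compared only within a list.

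Animal miRNA genes are mostly transcribed by RNA polymerase II into long primary transcripts. The nuclear enzyme Drosha cuts the hairpin out of this transcript, and Dicer then releases a short duplex, of which 1 strand is loaded into an Argonaute protein. The bases at positions 2 to 8 of that strand, the seed, lead the pairing with target messenger RNAs, and miRNAs with the same seed are counted as a family. In C. elegans the mir-35 family is present in the germ line and abundant in embryos, and embryos that lack the whole family die. Its members act redundantly, and their levels drop at about the time of hatching.

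The mature 3′ arms, which are the abundant strands of these hairpins, show which members could act on the same targets. They were read from the genome at the positions annotated by RefSeq on WBcel235, the assembly of ce11, which gave both arms for 10 of 10 members. Seed bases are in capitals.
cel-mir-35: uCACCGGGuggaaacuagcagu
cel-mir-36: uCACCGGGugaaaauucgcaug
cel-mir-37: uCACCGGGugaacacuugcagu
cel-mir-38: uCACCGGGagaaaaacuggagu
cel-mir-39: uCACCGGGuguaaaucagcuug
cel-mir-40: uCACCGGGuguacaucagcuaa
cel-mir-41: uCACCGGGugaaaaaucaccua
cel-mir-42: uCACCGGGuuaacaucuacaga
cel-mir-43: uAUCACAGuuuacuugcugucgc
cel-mir-44: uGACUAGAgacacauucagcu

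The 7 hairpins of the first cluster and cel-mir-42 shared 1 seed, and no other of the 260 miRNA genes with a RefSeq mature arm had it (1 of the 261 genes had none and was not searched). The other members of the second cluster, cel-mir-43 and cel-mir-44, each had another seed. The family members have the same seed by definition, and their sequences differed elsewhere. Over the 28 pairs of the 8 family members, the 3′ arms, seed included, were 59.1 to 86.4% identical (median 72.7%). The whole hairpins were 52.0 to 66.7% identical (median 57.1%). Every 31-base word of each of the 10 hairpins occurred only once in the genome, so reads of that length from 1 hairpin match no other place.

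The 300 bases around the summits of the 2 IDR peaks show where the highest signal lay. Both are plus-strand sequence of ce11 on chromosome II, with the mature 3′ arms in capitals and the summit at base 151.
mir-35 peak, chrII:11537545-11537844: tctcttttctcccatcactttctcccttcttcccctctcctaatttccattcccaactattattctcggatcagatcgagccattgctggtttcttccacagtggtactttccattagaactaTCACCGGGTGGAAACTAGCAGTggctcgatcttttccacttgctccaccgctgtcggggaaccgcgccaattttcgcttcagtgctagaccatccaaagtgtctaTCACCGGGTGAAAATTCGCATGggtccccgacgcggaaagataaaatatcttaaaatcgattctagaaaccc
mir-42 peak, chrII:11889701-11890000: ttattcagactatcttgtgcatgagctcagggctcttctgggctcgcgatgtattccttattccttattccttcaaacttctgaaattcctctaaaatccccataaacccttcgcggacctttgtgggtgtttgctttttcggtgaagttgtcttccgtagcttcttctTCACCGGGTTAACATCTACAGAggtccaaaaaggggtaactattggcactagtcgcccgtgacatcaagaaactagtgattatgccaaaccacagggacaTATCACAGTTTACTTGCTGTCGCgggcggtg

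The capitals in the mir-35 window are the arms of cel-mir-35 and cel-mir-36. Those in the mir-42 window are the arms of cel-mir-42 and cel-mir-43. In each window the summit thus fell at the most upstream hairpin of its cluster.

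The mir-35 cluster carried 1 of the highest AMA-1 peaks of the late embryo, over its most upstream hairpin. The peak covered 11537520 to 11537869, was rank 19 of the pooled and the IDR list, and had a signal value of 153 in the pooled list. Its summit at 11537695 was base 88 of the 97-base hairpin of cel-mir-35, 18 bp before cel-mir-36. The signal value was 125 at rank 26 in replicate 1 and 35.9 at rank 23 in replicate 2. The 2 replicates thus placed it within a few ranks of each other, and both had their summit inside the cel-mir-35 hairpin, at bases 56 and 88.

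Within the rest of the cluster the lists held only low peaks. In the pooled list a summit inside cel-mir-37 had a signal value of 15.5 (rank 15630) and a summit inside cel-mir-40 had 18.7 (rank 10203). Their −log10 q-values were 0.315 and 0.443, against 2.83 at the main peak, so they may be background. In replicate 1 the summits after the main peak were also inside cel-mir-37 (20.9, rank 3634) and cel-mir-40 (18.9, rank 4773). In replicate 2 they lay inside cel-mir-39 (10.3, rank 3403) and cel-mir-41 (7.28, rank 10842). The replicates thus differed in the hairpins at which they placed the lower summits. The −log10 q-values of these lower summits were 1.54 and 1.26 in replicate 1, against 2.94 at its main peak. In replicate 2 they were 0.695 and 0.298, against 2.90 at its main peak. No list had a summit inside cel-mir-36 or cel-mir-38, whose nearest pooled summits were 18 bp and 4 bp away. Most peaks were 350 bp wide in the pooled list, 360 bp in replicate 1 and 340 bp in replicate 2, which is several hairpins' length, so a summit inside a hairpin does not resolve that hairpin from its neighbours.

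The cluster lies in an intron of Y62F5A.9, a protein-coding gene on the opposite strand. The intron separates exons 2 and 3 of 4 and is 2380 bp long, and the gene's 1 annotated transcript has no exon inside the cluster. The short non-coding RNA genes Y62F5A.14, Y62F5A.15 and Y62F5A.16 overlap the cluster on the strand of the hairpins. Upstream of the hairpins no summit was found in the pooled list for 2117 bp, in replicate 1 for 3286 bp and in replicate 2 for 2074 bp. Downstream, a pooled peak at rank 4988 (signal value 24.5) had its summit 641 bp beyond cel-mir-41. That summit was in an exon of dhgd-1, which encodes a D-2-hydroxyglutarate dehydrogenase, 150 bp before the annotated end of this minus-strand gene and 204 bp upstream of the start of Y62F5A.9. It was at rank 6279 in replicate 1 and 9940 in replicate 2. The nearest summits outside the window were at 1896 bp (pooled), 1026 bp (replicate 1) and 1723 bp (replicate 2).

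**Figure D1:**
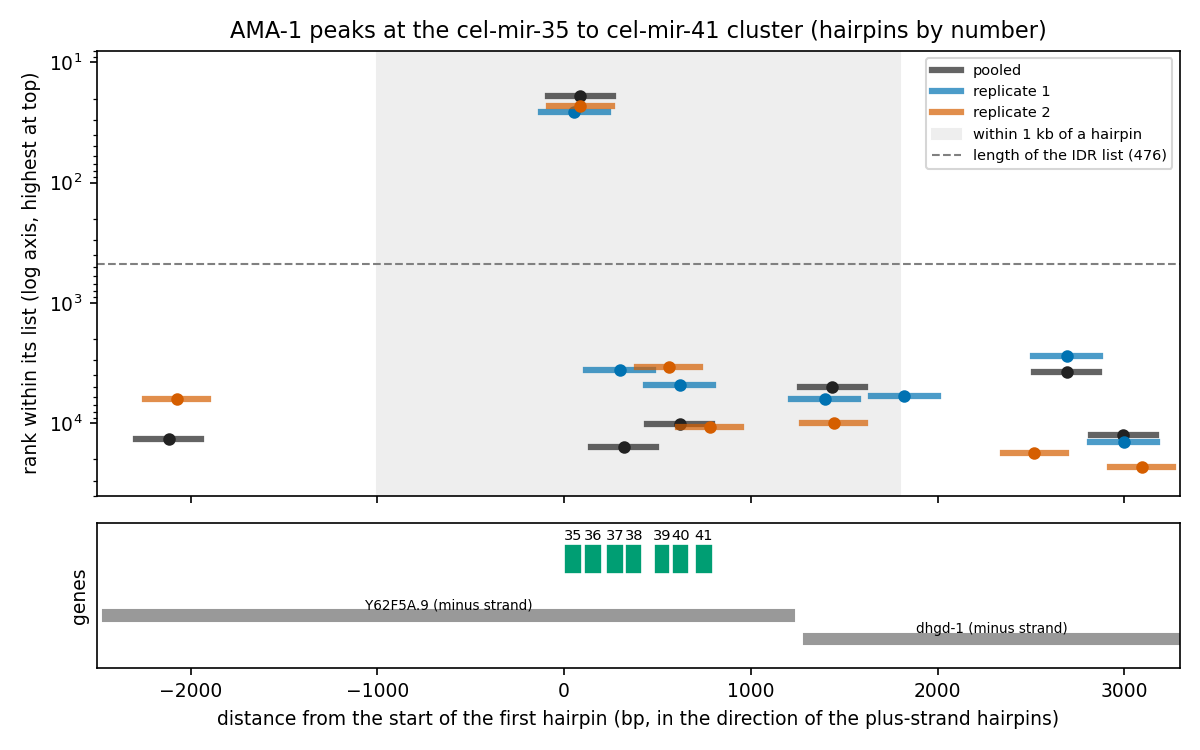
Peaks of the pooled list and of each replicate around the cel-mir-35 to cel-mir-41 cluster, with bars for peak intervals, dots for summits, rank within the list on a log axis and distance from the start of cel-mir-35 in bp. The peaks over cel-mir-35 stand at ranks 19, 26 and 23 in the pooled list, replicate 1 and replicate 2, and every other peak shown has a rank number above 2000.

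The mir-42 cluster had a lower peak, again over its most upstream hairpin. It covered 11889676 to 11890025 at rank 152 of the pooled and the IDR list, with a signal value of 72.6 in the pooled list. The summit at 11889851 was base 41 of the 95-base hairpin of cel-mir-42. The signal value was 56.0 at rank 192 in replicate 1 and 23.0 at rank 111 in replicate 2, and both summits were inside the hairpin, at bases 40 and 56. Both replicates therefore ranked this peak below the one over cel-mir-35. The cluster lies outside protein-coding genes, and the summit also fell in ZK930.12, an annotated non-coding RNA gene on the opposite strand. From which strand the signal came cannot be told from ChIP-seq.

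Only faint peaks followed over the rest of this cluster. A summit inside cel-mir-44 had a signal value of 11.6 in the pooled list (rank 26148) and 5.03 in replicate 2 (rank 24085), and replicate 1 had no summit there. Its −log10 q-value in the pooled list was 0.213, so it may be background. No list had a summit inside cel-mir-43. Thus 7 of the 10 members had a summit inside the hairpin in at least 1 of the pooled and replicate lists, and 3 had none. This count includes low entries that may be background. The same count over all miRNA genes was not made, so it shows nothing particular to the members.

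After the main peak, the highest pooled peak in the window of the mir-42 cluster lay outside the hairpins. It was at rank 625 of the pooled list (signal value 45.4), outside the IDR list, with its summit 807 bp beyond cel-mir-44. In the mir-35 window, too, the highest pooled peak after the main one lay outside the hairpins, at dhgd-1 (rank 4988). The summit of the rank 625 peak in the mir-42 window lay 67 bp beyond the annotated end of ZK930.2, a protein-coding gene on the minus strand. This summit, at 11890925, also lay upstream of the start, at 11890696, of ZK930.15, a snoRNA gene on the minus strand. The replicates ranked this rank 625 peak far apart, at 2208 in replicate 1 (signal value 24.7) and 341 in replicate 2 (17.6). On the upstream side, a summit 706 bp before cel-mir-42 was at rank 5129 of the pooled list and 4836 of replicate 1, and replicate 2 had no overlapping peak. Of the words in that upstream peak 72.2% occurred once in the genome, against 100% in each of the other 7 pooled peaks. Just outside the window lay a pooled summit at 1006 bp and a summit of replicate 2 at 1008 bp, while replicate 1 had one just inside, at 969 bp (rank 9036). The last of these overlaps the peak of replicate 2 at 1008 bp (rank 4556), so the window's edge parted them.

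**Figure D2:**
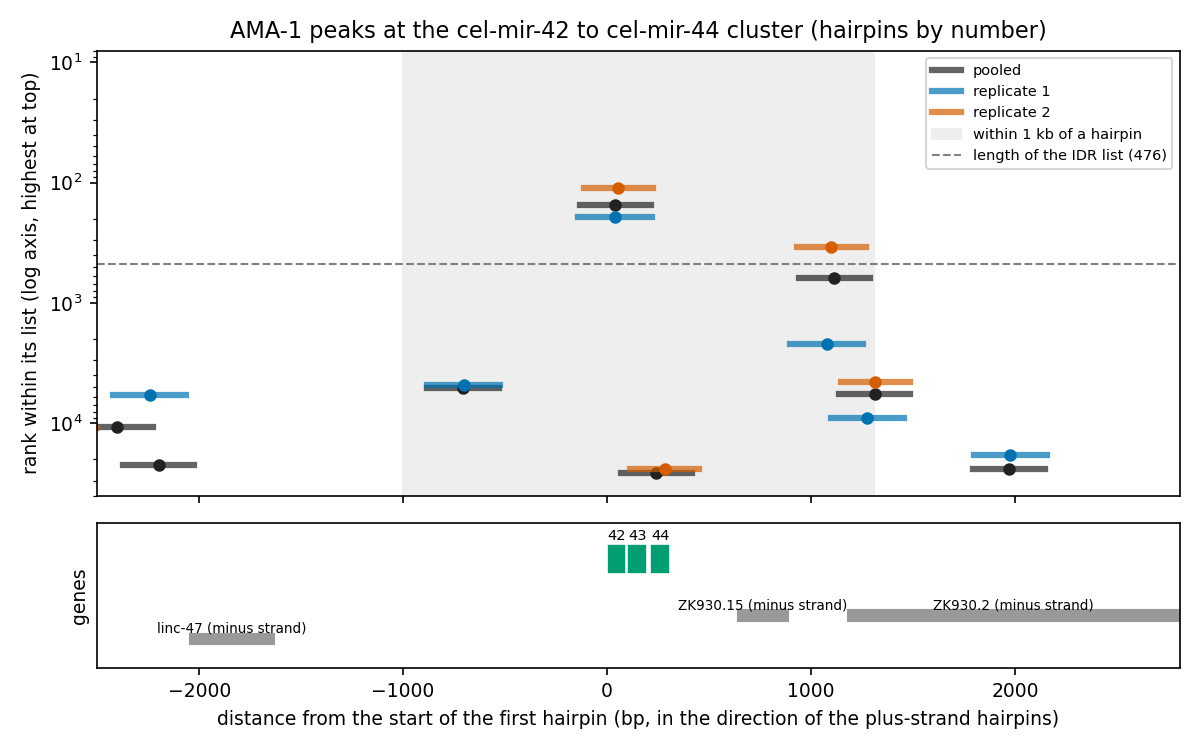
Peaks of the pooled list and of each replicate around the cel-mir-42 to cel-mir-44 cluster, with bars for peak intervals, dots for summits, rank within the list on a log axis and distance from the start of cel-mir-42 in bp. The peaks over cel-mir-42 stand at ranks 152, 192 and 111 in the pooled list, replicate 1 and replicate 2, and the peak by the end of ZK930.2 at ranks 625, 2208 and 341.

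Both member peaks stood at like ranks in the 2 replicates, closer than the median over all IDR peaks. The larger of the 2 replicate ranks was 1.13 times the smaller at cel-mir-35 and 1.73 times at cel-mir-42. Over the 443 IDR peaks that overlapped a peak in both replicate lists, the median of this ratio was 6.69, with a median rank of 249 in replicate 1 and 910 in replicate 2. Each was paired with the overlapping peak of nearest summit, which need not be the highest. The ratio varied among peaks of similar rank. It was 6, 1.06, 2.09 and 1.29 at IDR ranks 17, 18, 20 and 21. At IDR ranks 150, 151, 153 and 154 it was 39.3, 12.4, 1.89 and 2.42. The summits of the replicates were 32 bp apart at cel-mir-35 and 16 bp apart at cel-mir-42, and the median over the 443 peaks was 59 bp. Both member peaks were among the 200 highest of both replicates, as were 65 of the 476 IDR peaks (13.7%). The peak over cel-mir-35 was also among the 50 highest of both, a place held by 21 IDR peaks. With 2 libraries this describes their order and is not a test. Of the 8 member peaks of replicate 1, 7 overlapped a peak of replicate 2 by at least 1 bp, and 7 of the 7 peaks of replicate 2 overlapped one of replicate 1. How often peaks of the full replicate lists overlap each other was not counted, so these counts show nothing particular to the members. An overlap is also not always the same summit. The peak of replicate 2 in cel-mir-44 overlapped only the flank of the cel-mir-42 peak of replicate 1, by 107 bp. The peak of replicate 1 in cel-mir-37 had its longest overlap, 139 bp, with the cel-mir-35 peak of replicate 2, whose summit was more than a hairpin's length away.

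**Figure D3:**
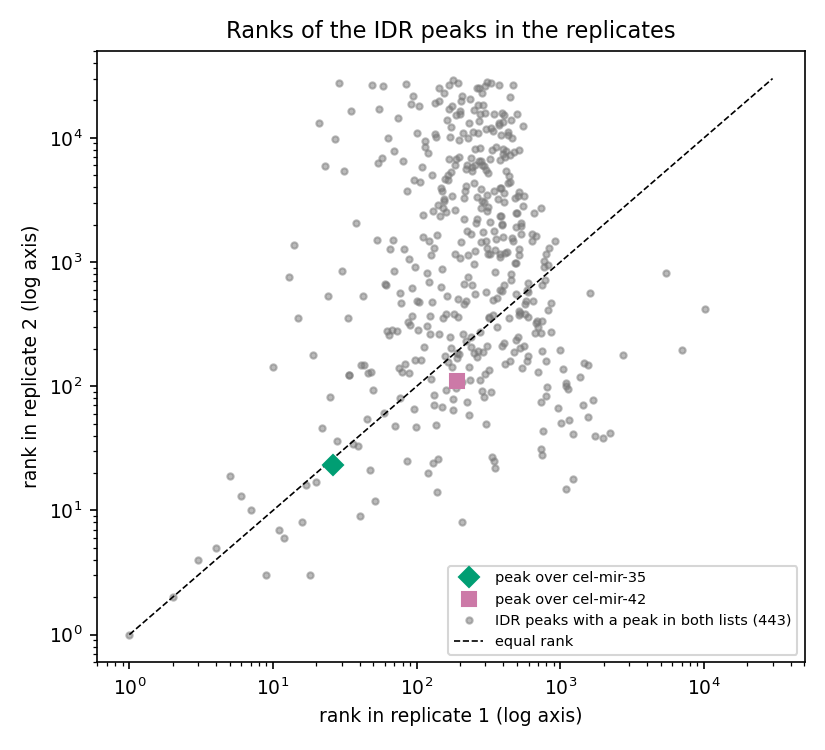
Rank in replicate 1 (x, log axis) and in replicate 2 (y, log axis) of the 443 IDR peaks that overlap a peak in both lists, with the line of equal rank. The peaks over cel-mir-35 (26 and 23) and cel-mir-42 (192 and 111) lie near the line.

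An IDR summit lay within 1000 bp of 10 of the 10 members, against 23 of the 251 other miRNA genes. Over all miRNA genes this share was 12.6% (33 of 261), and over all 46890 annotated genes it was 1.93%. The 10 members stand for only 2 peaks, because hairpins of a cluster share a summit: rank 19 counted for 7 of them and rank 152 for 3. A pooled summit at any rank was found for 10 of 10 members and 117 of the 251 others, or 48.7% of all miRNA genes. In replicate 1 the counts were 10 of 10 and 120 of 251 (49.8% of all), and in replicate 2 they were 10 of 10 and 128 of 251 (52.9% of all). Such a summit, which at low ranks may be background, is thus common among miRNA genes, and the members differed mainly in its height. The median rank of the highest pooled peak was 19 over the members and 4887 over the 117 other genes that had one. In replicate 1 these medians were 26 and 6542.5, and in replicate 2 they were 23 and 9040.5. Since the members were chosen with earlier results of these data known, these contrasts describe them and are not a test.

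**Figure D4:**
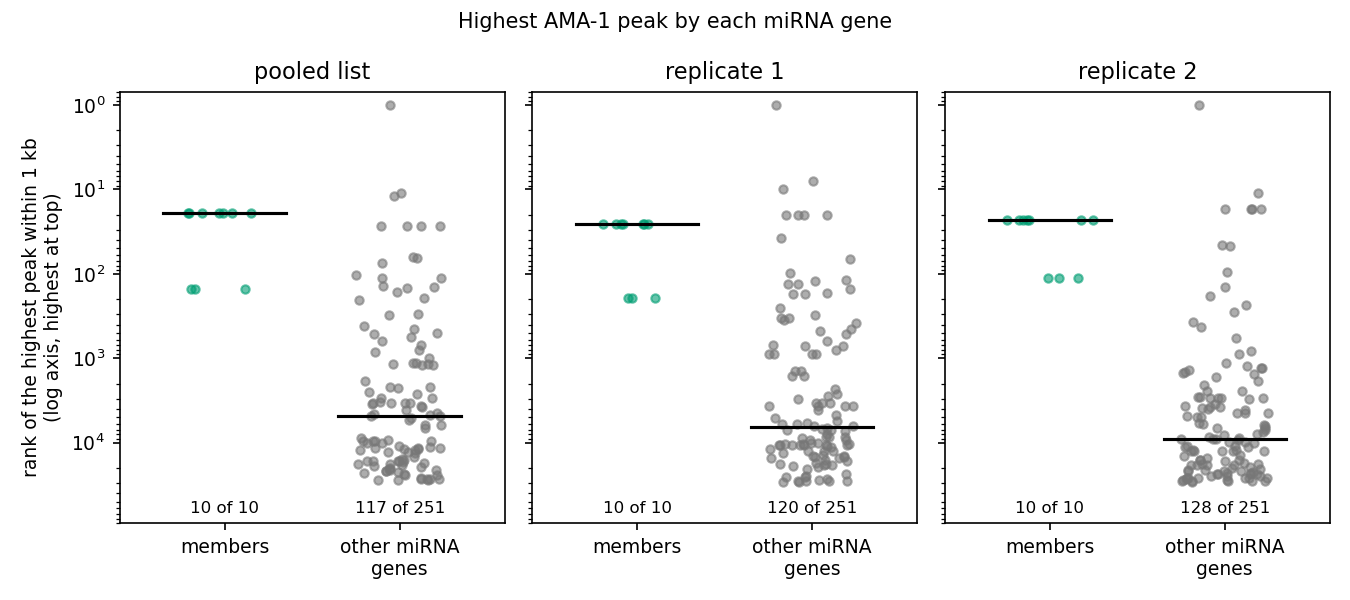
Rank of the highest peak within 1 kb (log axis) for the member miRNA genes and the other miRNA genes, in the pooled list, replicate 1 and replicate 2, with a line at the median and the number of genes that had a peak. The members form 2 levels, at ranks 19 and 152 of the pooled list, since hairpins of a cluster share a peak, and the median of the others is 4887.

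Among the 21 distinct IDR peaks that were the highest by a miRNA gene, the peak over cel-mir-35 was the fourth and that over cel-mir-42 was number 14. The 3 above cel-mir-35 were at cel-mir-52 (rank 1, and 1 in both replicates), cel-mir-58a (rank 11) and cel-mir-62 (rank 12). The peak by cel-mir-58a overlapped peaks at rank 10 in replicate 1 and 143 in replicate 2, and the highest peak of replicate 2 within 1000 bp of that gene was at rank 11. The peak by cel-mir-62 had its summit 558 bp from the hairpin in an intron of ugt-50. It overlapped a peak at rank 8 in replicate 1 and none in replicate 2, where another peak within 1000 bp of the gene was at rank 46. Next below cel-mir-35 came the peak at rank 27, which counted for cel-mir-54, cel-mir-55, cel-mir-56 and cel-mir-55b and was at ranks 20 and 17 in replicates 1 and 2. Joined over gaps of up to 1000 bp on 1 strand, the miRNA genes formed 227 loci, of which 7 had at least 3 genes. The 2 clusters described here and the cel-mir-54 cluster were the 3 of these 7 with an IDR peak. The summits were 87 bp (cel-mir-35) and 40 bp (cel-mir-42) downstream of the start of the first hairpin, and over the 22 loci with an IDR peak the median was 31 bp (quartiles −90.5 and 106.5 bp). An IDR summit inside a hairpin was found for 2 of the 10 members and for 7 of all 261 miRNA genes (2.68%).

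Genes with the seeds of cel-mir-43 and cel-mir-44 occur elsewhere in the genome, which allows related hairpins to be compared. The seed of cel-mir-43 was shared by cel-mir-2, cel-mir-250 and cel-mir-797, and that of cel-mir-44 by cel-mir-45, cel-mir-61 and cel-mir-247. The mature sequence of cel-mir-45 is the same as that of cel-mir-44, base for base. Seed bases are in capitals.
cel-mir-45: uGACUAGAgacacauucagcu
cel-mir-61: uGACUAGAaccguuacucauc
cel-mir-247: uGACUAGAgccuauucucuucu
cel-mir-250: aAUCACAGucaacuguuggc
cel-mir-797: uAUCACAGcaaucacaaugagaaga

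The 2 seeds lay side by side at 3 places, on the same strand and with 15 bp between the hairpins of cel-mir-43 and cel-mir-44 (chromosome II), 44 bp between cel-mir-250 and cel-mir-61 (chromosome V) and 40 bp between cel-mir-797 and cel-mir-247 (chromosome X). Their highest AMA-1 peaks differed by far. The pair cel-mir-43 and cel-mir-44 had the peak at rank 152 of the pooled list. The pair cel-mir-250 and cel-mir-61 had a peak at rank 1154 with its summit inside cel-mir-61. It overlapped a peak at rank 725 in replicate 1 and one at rank 25533 in replicate 2, where the highest peak within 1000 bp was at rank 4396. The pair cel-mir-797 and cel-mir-247 had no summit within 1000 bp in any of the 4 lists. In the first pair the highest summit was over cel-mir-42, a hairpin with the mir-35 seed that the other pairs lack.

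Of the genes that carry one of these seeds alone, cel-mir-2 had a peak above those of all 3 pairs, at rank 64, with 67 in replicate 1 and 281 in replicate 2, and its summit lay in an intron of ppfr-1, 147 bp from the hairpin. The peak by cel-mir-45, at 11880944 to 11881039 on the minus strand of chromosome II, was at rank 517 and so just outside the IDR list of 476 peaks. It was at ranks 470 and 234 in replicates 1 and 2. Its summit was 186 bp from the hairpin and 170 bp beyond the annotated end of top-2, a DNA topoisomerase II gene, so it cannot be assigned to cel-mir-45 alone.

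In base composition the 2 member peaks were richer in G and C than most IDR peaks. The 300 bases around the summit held 47.3% G and C at cel-mir-35 and 46% at cel-mir-42, and the median over the 476 IDR peaks was 41.7% (quartiles 38 and 45%). Every 31-base word occurred once in the genome in both peaks, as in 423 of the 476 IDR peaks (88.9%). Short motifs were searched on both strands in these windows. TATAA had no match in either and was found in 35.1% of all IDR windows. The same held for GATAAG, found in 7.35% of all IDR windows, and for CACGTG, found in 8.19%. The motif GAGAG had 1 match at cel-mir-35 and none at cel-mir-42, and was found in 52.7% of all IDR windows. TATAA and GATAAG share letters but neither holds the other. These matches only describe the letters in the windows.

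The proteins that make and use miRNAs, and the known targets of the family, were looked at in the same embryos. Of 16 small RNA pathway genes, 15 were found by name in the annotation, and 4 of these had an IDR summit between 500 bp upstream of the start and the end, against 1.52% of all protein-coding genes. The 15 genes all had a pooled summit, with a median highest rank of 3441, and the median was 9611 over the 8949 protein-coding genes that had one. This window runs over the whole gene, so a long gene has more room for a summit. Gene length was not taken into account, so neither contrast says that the list is enriched. The gene vig-1, for a component of the Argonaute complex, had its peak at rank 180, 438 bp upstream of the start, but at 1231 in replicate 1 and 18 in replicate 2. The Drosha gene drsh-1 had a peak at rank 255, 96 bp inside the gene, at ranks 250 and 4311 in the replicates. The Argonaute gene alg-1 had a peak at rank 295, in an exon 6348 bp from the start, at ranks 176 and 18124 in the replicates. The gene xrn-2, for an exonuclease that degrades released miRNAs, had one at rank 314, 181 bp from the start. It was at rank 217 in replicate 1 and overlapped none in replicate 2. The peaks at alg-1 and xrn-2 were thus high in replicate 1 only. Of the 4 IDR peaks at these genes, the 3 found in both replicates were placed farther apart in rank than the 2 at the hairpins. The Dicer gene dcr-1 had its highest pooled peak at rank 9996, 7821 bp from the start. That peak overlapped no peak of replicate 1 and a peak at rank 1095 in replicate 2.

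Of 6 genes known as targets of the mir-35 family in C. elegans, 1 had an IDR summit. This was sup-26, for an RNA-binding protein of sex determination, at rank 121, in an exon 3724 bp from the start. It was at ranks 161 and 93 in replicates 1 and 2, close to those of cel-mir-42. The pooled peak of nhl-2, for a cofactor of miRNA action, was at rank 1077, with 3203 in replicate 1 and 2036 in replicate 2. That of lin-23 was at rank 3041, with 12449 in replicate 1 and 4835 in replicate 2. The replicates were farther apart at ndk-1 (rank 3678, with 2933 in replicate 1 and 29069 in replicate 2). At gld-1 the pooled rank was 5119, with 4241 in replicate 1 and 11958 in replicate 2. For egl-1, which starts programmed cell death, no pooled summit was found. With 1 of 6 genes, this count says nothing of the list as a whole.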

How the data were processed

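AMA-1 ChIP-seq peak lists on ce11 were used for 2 biological replicates, which the labels call separate biosamples. Per the text deposited with the lists, each replicate's list derives from its alignments and 1 further file, the pooled list from both sets of alignments, and the IDR list from these 3. The aligner, peak caller, IDR threshold and read depth were not given in the sources used here. The authors deposited per peak a signal value, used here as a score for ranking within a list (lowest rank for ties), a −log10 q-value, which 342 pooled peaks shared at its maximum, and a summit. Whether the further file was a control is not stated. The lists on ce10 were not used, since no genome of that build was at hand.

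Genes came from Ensembl release 115 on WBcel235 and mature arms from RefSeq on the same assembly, with 1-based positions. Distances run from a summit to the nearest hairpin base, and replicate peaks were matched by an overlap of at least 1 bp. Identity was taken from global alignments with Biopython 1.88, under Python 3.11.15 with numpy 2.4.6 and pandas 2.3.3. Window and word searches were tested on simulated data. With 1 group and no control, no test between groups was possible, and all values describe these libraries. Ranks of peaks were recomputed with each replicate alone, other windows, ranking by q-value and interval overlap. The members and lists were chosen with earlier results of these data known. The genes named are the members, their host and neighbours, the other miRNA genes with the highest pooled peaks, the miRNA genes with a shared seed, and the genes of the 2 lists with an IDR summit. Other list genes were named after their values were seen.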

Additional observations from a re-analysis of the deposited data

How the results depend on the processing

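Of 33 recomputed values, 27 stayed within the spread of the replicates or within 1.5 times the count reported. The spread was the standard deviation of the 2 replicate ranks, so the single-replicate ranks were judged against themselves. This share is therefore no measure of robustness. The highest peak of the mir-35 cluster was at ranks 23 to 26 with a single replicate's list in place of the pooled list (rank 19), and that of the mir-42 cluster at ranks 111 to 192 (pooled rank 152). Ranked by q-value, both were at rank 1, a place shared by 342 pooled peaks. Within 250 or 500 bp in place of 1000 bp, the mir-42 cluster had 2 pooled peaks in place of 4, since the flanking peaks fell outside. Within 1000 bp, 10 of 10 members had a summit among the 476 highest peaks of each replicate alone. The same held for the top 238 of the IDR list and the top 952 of the pooled list. These outcomes follow from the ranks given above and add no support. Members with an IDR summit numbered 10 within 2000 bp, 9 within 500 bp and 7 within 250 bp. All these member counts rest on 2 peaks shared by neighbouring hairpins. The shares over all miRNA genes at these cuts and windows were not computed, so the counts show nothing particular to the members. Ranking by column 5 gave no value, as it is 0 throughout. No paired analysis was possible because the study has 1 group. Unknown depth limits every statement on low peaks.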

Other observations

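The bases just before the hairpins, looked at after the sequence was seen, were rich in pyrimidines at the mir-35 cluster. Of the 60 bases before the hairpin of cel-mir-35, 85% were C or T, and no other of the 261 miRNA genes had a higher share. Before cel-mir-42 the share was 68.3%, with 20 miRNA genes above it. The median over all miRNA genes was 56.7%.

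The 3′ arms of the mir-35 family share their seed, while the seeds of the 5′ arms differed between all 10 members. The 5′ arms were not compared beyond the seed.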
